A study of Mus musculus with 36 samples.

Results

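The comparison asked whether the difference between tumour and the liver around it was the same under CCl4 as under DDC. It was the difference of tumour effects: CCl4 tumours minus CCl4 non-tumoral liver, minus the same for DDC. It used 15 of the 36 arrays of the series, each array read from total RNA of 1 mouse liver sample (strain FVB/n). The samples were chosen by their labels alone: 4 tumours with CCl4 (Tu_AKTCAT_CCl4), 4 non-tumoral livers with CCl4 (NonTu_AKTCAT_CCl4), 4 tumours with DDC (Tu_AKTCAT_DDC) and 3 non-tumoral livers with DDC (NonTu_AKTCAT_DDC). The labels of all 15 hold AKTCAT, read here as the drivers AKT and CAT of the model. They do not say whether the non-tumoral livers themselves carried the drivers. The labels give CAT without a gene name, and beta-catenin is assumed. The labels do not give the dose, time, sex or age, how the drivers were introduced, or whether each sample is its own animal. The p-values therefore rest on the variation among samples, which may be technical. For context, 4 tumours (Tu_AKTCAT) and 3 non-tumoral livers (NonTu_AKTCAT) of the same drivers with no treatment in their labels (untreated), together with 3 livers labelled DDC_only (DDC alone) and 3 labelled PBS_only (PBS liver), were read from the same fit.

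AKT is a kinase of insulin and growth factor signalling that drives fat synthesis in hepatocytes, and beta-catenin is the effector of Wnt signalling, which in normal liver is active around the central vein. CCl4 is a solvent that cytochrome P450 enzymes of the hepatocytes around the central vein turn into toxic radicals. DDC is a porphyrinogenic compound that disturbs heme synthesis, injures bile ducts and makes hepatocytes form protein aggregates known as Mallory-Denk bodies. Each tumour effect has 2 sides, the tumour and the non-tumoral liver it is set against.

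Each array detected between 10688 and 12721 of 25697 probes (41.6% to 49.5%), at a median intensity of 7.97 to 29.6 units, and the lowest correlation between arrays of 1 group was 0.96. The ranges of detected probes were 11556 to 12220 in CCl4 tumours, 10688 to 11392 in CCl4 non-tumoral liver, 12013 to 12721 in DDC tumours and 11822 to 12174 in DDC non-tumoral liver. Slides were read from the number that opens the header of each array's detection p-values, which no label or header calls a slide. Those headers were tied to samples by values. The CCl4 groups lay together on slide 5, the non-tumoral DDC group with DDC tumours 3 and 4 on slide 2, and DDC tumours 1 and 2 on slide 1. The CCl4 tumour effect therefore lay within 1 slide. The DDC tumour effect lay partly between slides, as DDC tumours 1 and 2 shared no slide with DDC non-tumoral liver. CCl4 against DDC within 1 tissue and slide cannot be told apart. Of the driver transcripts, *Akt1* lay near background, with 5.12, 5.33, 5.58 and 5.05 in CCl4 tumours, against 5.4, 4.73, 5.86 and 4.83 in CCl4 non-tumoral liver and 4.92, 5.31, 4.8 and 4.75 in DDC tumours, against 4.63, 4.52 and 4.95 in DDC non-tumoral liver. *Ctnnb1*, which encodes beta-catenin, measured 11.71, 12.01, 11.48 and 12.03 in CCl4 tumours, against 11.39, 11.45, 11.64 and 11.73 in CCl4 non-tumoral liver, and 11.53, 11.6, 11.38 and 11.27 in DDC tumours, against 11.25, 11.11 and 11.87 in DDC non-tumoral liver. Their differences of tumour effects were -0.18 ± 0.31 (adjusted p = 0.847) and 0.22 ± 0.25 (adjusted p = 0.748), and whether these probes read the drivers themselves was not tested. *Xist*, the transcript of the inactive X chromosome, was detected on all 15 arrays, at 7.7, 7.93, 6.72 and 7.16 in CCl4 tumours, against 7.1, 6.44, 7.88 and 6.3 in CCl4 non-tumoral liver, and 9.09, 8.92, 8.76 and 9.06 in DDC tumours, against 9.01, 8.89 and 9.29 in DDC non-tumoral liver. It was lower with CCl4 than with DDC in tumours, with a difference of -1.58 ± 0.29 (adjusted p = 0.000222), and in non-tumoral liver, with -2.14 ± 0.31 (adjusted p = 7.22e-06), while the difference of tumour effects did not pass, at 0.56 ± 0.43 (adjusted p = 0.588). The Y-linked *Uty* lay near background, with means of 5.34 in CCl4 tumours, 5.57 in CCl4 non-tumoral liver, 5.18 in DDC tumours and 4.86 in DDC non-tumoral liver. In that order it was detected on 4, 2, 3 and 0 arrays. In non-tumoral liver *Uty* passed as higher with CCl4 than with DDC, opposite to *Xist*, and in tumours it did not pass. A difference of sex between the treatments was not tested.

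Of 10765 genes tested, 358 (3.33%) passed for the difference of tumour effects at an adjusted p under 0.05 (limma, Benjamini-Hochberg over all genes). In 255 genes (2.37%) the tumour effect was higher under CCl4 than under DDC and in 103 genes (0.957%) it was lower. All values below are log2 differences (1 unit is a change of 2-fold) followed by their standard error after ±, or log2 normalized intensities of single arrays. The smallest difference that passed was 0.65 in size, and the median over all genes was 0.01. The tumour effect itself passed in 1641 genes (15.2%) under CCl4, 844 higher and 797 lower (2266 higher and 262 lower with median scaling), and in 621 genes (5.77%) under DDC, 267 higher and 354 lower. Of 253 genes that passed in both, 238 went in the same direction, 69 higher and 169 lower, and 15 in opposite directions. Across the 10765 genes the tumour effects correlated at a Pearson r of 0.445 and a Spearman rho of 0.393, as a description only, since genes are not independent and each effect has its own arrays.

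**Figure D1:**
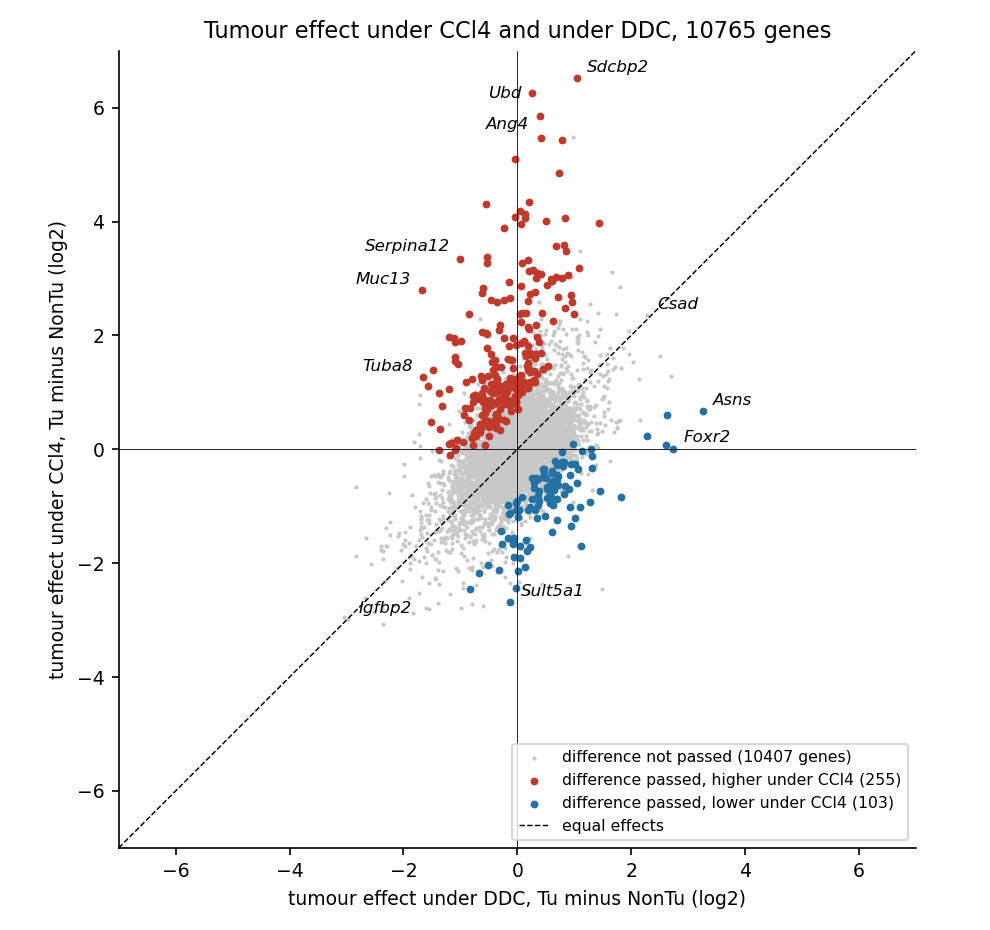
Each point is a gene, with its tumour effect under DDC on the horizontal axis and under CCl4 on the vertical axis (log2, tumour minus non-tumoral liver, means over 4 against 3 and 4 against 4 arrays). The 255 genes with a higher effect under CCl4 lie above the dashed line of equal effects and the 103 with a lower effect below it, while *Csad* and *Igfbp2*, named among the shared changes, lie near the line.

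The count of 358 became 132 with a replicate block within treatment, a setting added after the data were seen, 254 in a fit of the 15 arrays alone, 216 with slide as a fixed block, 208 on slides that hold both tissues of a treatment and 210 without DDC non-tumoral sample 3. With median scaling the split was 378 higher and 30 lower. The count of 621 for the tumour effect under DDC became 363 with median scaling, 244 in a fit of the 15 arrays alone, 390 with the replicate block within treatment, 40 with slide as a fixed block, 47 on slides that hold both tissues, 91 without DDC non-tumoral sample 3, 118 without DDC tumour 1, 135 without DDC non-tumoral sample 2 and 1051 without DDC non-tumoral sample 1.

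Most of the differences lay between the non-tumoral livers. Of the 255 genes with a higher tumour effect under CCl4, 174 (68.2%) passed for CCl4 against DDC in non-tumoral liver and not in tumours, 47 (18.4%) in tumours and not in non-tumoral liver, 29 in both and 5 in neither. Over these 255 genes the median level was 9.11 in CCl4 tumours, 7.52 in CCl4 non-tumoral liver, 8.83 in DDC tumours and 9.11 in DDC non-tumoral liver. Of the 4 groups compared, the CCl4 non-tumoral liver was thus the low one, and the other 3 lay close together. The medians in untreated non-tumoral liver, at 7.24, and PBS liver, at 7, were lower still. As the 255 genes were chosen by the values of the 4 groups, the levels there are a description and no separate evidence. Of the 103 genes with a lower tumour effect under CCl4, 64 (62.1%) passed for CCl4 against DDC in non-tumoral liver only and 28 (27.2%) in tumours only, while with median scaling these were 13 and 15 of 30. Their median levels were 7.33 in CCl4 tumours, 8.39 in CCl4 non-tumoral liver, 7.78 in DDC tumours and 7.15 in DDC non-tumoral liver. Over all genes tested, CCl4 against DDC passed in 1818 genes (16.9%) in tumours, 8.55% of all genes being higher and 8.34% lower with CCl4, and in 2391 (22.2%) in non-tumoral liver, 10.1% higher and 12.1% lower. Because CCl4 and DDC arrays of a tissue lay on different slides, the share of each side cannot be told apart from slide. The fit had no slide term, and its DDC tumour effect lay partly between slides. With slide as a fixed block 216 genes passed for the difference and 40 for the DDC tumour effect, against 358 and 621.

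**Figure D2:**
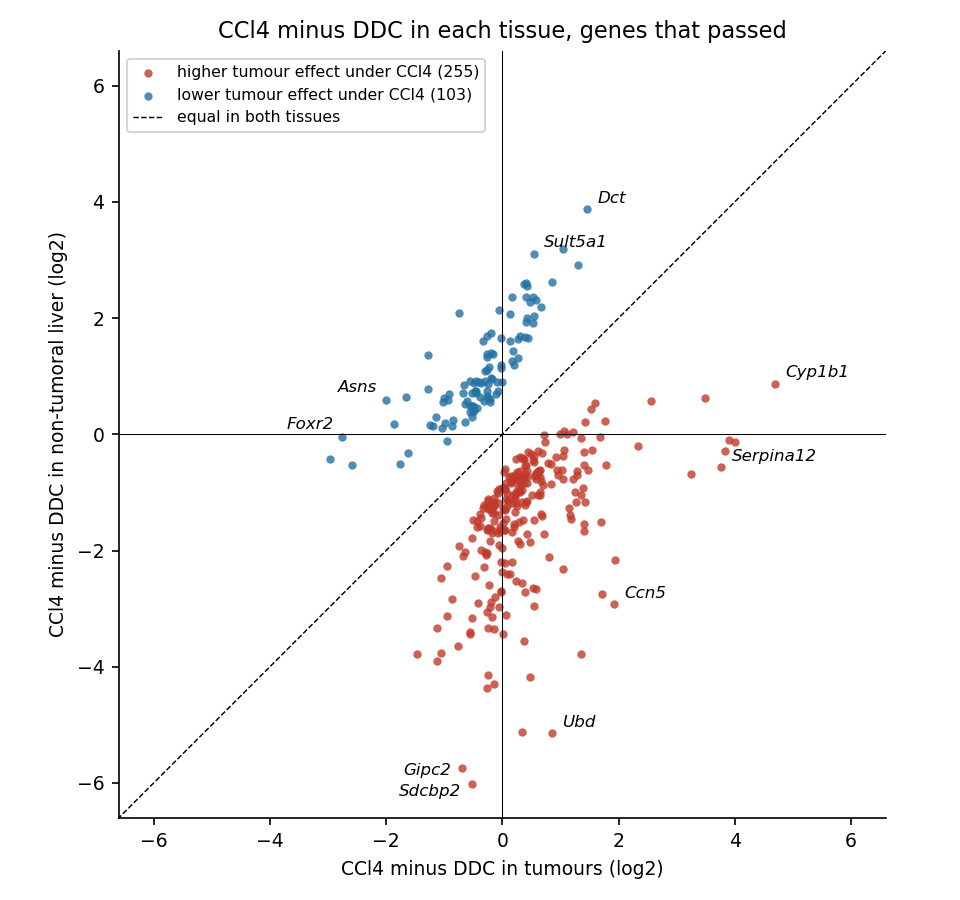
For each gene that passed, CCl4 minus DDC in tumours stands on the horizontal axis and CCl4 minus DDC in non-tumoral liver on the vertical axis (log2). The 255 genes with a higher tumour effect under CCl4 spread mostly downward, at a median of -1.19 in non-tumoral liver against 0.24 in tumours, and a smaller set around *Serpina12* and *Cyp1b1* spreads to the right.

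The 4 largest positive differences belonged to *Ubd*, *Sdcbp2*, *Ang4* and *Guca2a*. *Ubd* encodes a ubiquitin-like modifier that marks proteins for the proteasome. It measured 13.24, 13.67, 13.52 and 13.41 in CCl4 tumours, against 6.55, 7.11, 7.56 and 7.61 in CCl4 non-tumoral liver. Under DDC it measured 12.86, 12.89, 12.45 and 12.25 in DDC tumours, against 12.85, 11.6 and 12.6 in DDC non-tumoral liver. The DDC tumours and DDC non-tumoral livers overlapped near the level of the CCl4 tumours. Of the 4 groups compared, only the CCl4 non-tumoral livers were low. Untreated non-tumoral livers, with 4.81, 5.77 and 7.59, and PBS livers, with 4.66, 4.59 and 6.11, were low as well. The tumour effect was 6.25 ± 0.43 (adjusted p = 3.45e-12) under CCl4 and 0.26 ± 0.47 (adjusted p = 0.792) under DDC, and their difference 5.99 ± 0.64 (adjusted p = 2.06e-07). CCl4 minus DDC was -5.14 ± 0.47 (adjusted p = 1.63e-09) in non-tumoral liver and 0.85 ± 0.43 (adjusted p = 0.191) in tumours.

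*Sdcbp2*, a PDZ-domain protein that binds membrane phosphoinositides, measured 11.32, 11.58, 11.31 and 12.23 in CCl4 tumours, against 4.85, 5.5, 4.97 and 5.06 in CCl4 non-tumoral liver, and 12.39, 12, 12.08 and 12.08 in DDC tumours, against 11.08, 10.65 and 11.58 in DDC non-tumoral liver. Its 4 CCl4 non-tumoral livers were the low group of the 4, and the other arrays of these groups lay at 10.65 or above. The difference of tumour effects was 5.48 ± 0.49 (adjusted p = 5.65e-09), but the 3 probes of the gene disagreed: the others gave 2.67 (adjusted p = 0.000204) and -0.21 (adjusted p = 0.901). *Ang4*, a secreted ribonuclease with antimicrobial activity in the gut, measured 10.68, 11.59, 11.39 and 11.93 in CCl4 tumours, against 4.55, 6.8, 5.79 and 5.07 in CCl4 non-tumoral liver, and 11.52, 10.52, 11.16 and 11.08 in DDC tumours, against 10.67, 10.4 and 10.96 in DDC non-tumoral liver. The difference was 5.46 ± 0.65 (adjusted p = 1.99e-06). *Guca2a*, which encodes guanylin, the peptide ligand of the intestinal guanylate cyclase receptor, measured 9.32, 12.1, 9.83 and 8.97 in CCl4 tumours, against 4.58, 4.59, 4.79 and 5.91 in CCl4 non-tumoral liver, and 8.78, 8.56, 8.85 and 8.62 in DDC tumours, against 9.95, 7.88 and 8.4 in DDC non-tumoral liver. Its difference was 5.13 ± 0.66 (adjusted p = 7.96e-06), with CCl4 tumours also above DDC tumours by 1.35 ± 0.45 (adjusted p = 0.0358). Untreated non-tumoral and PBS livers were low too, with means of 5.15 and 4.42 for *Sdcbp2* and 5.15 and 5.05 for *Ang4*. For *Guca2a* these means were 4.47 and 4.54.

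The same arrangement, low in CCl4 non-tumoral liver and high in the other 3 groups compared, held for *Gipc2*, an adaptor with a PDZ domain. No untreated non-tumoral or PBS array detected it either. *Gipc2* measured 10.21, 10.45, 9.87 and 10.1 in CCl4 tumours and was detected on no CCl4 non-tumoral array. Under DDC it measured 11.11, 10.46, 10.93 and 10.92 in DDC tumours, against 11.09, 9.75 and 10.49 in DDC non-tumoral liver. It was at least 26-fold higher in CCl4 tumours than in CCl4 non-tumoral liver, where the bound is set against the lowest signal detected on each array or the probe's own if higher, and its DDC tumour effect was 0.41 ± 0.31 (adjusted p = 0.474). The difference was 5.05 ± 0.43 (adjusted p = 1.74e-09). *Ccn5*, a secreted matricellular protein, measured 9.7, 8.88, 9.07 and 8.81 in CCl4 tumours, at least 12.6-fold higher than in CCl4 non-tumoral liver, where no array detected it. Under DDC it measured 7.46, 7.4, 6.86 and 7.06 in DDC tumours, against 8.02, 7.63 and 7.57 in DDC non-tumoral liver, and CCl4 tumours were above DDC tumours by 1.92 ± 0.25 (adjusted p = 2.06e-06). The difference was 4.84 ± 0.37 (adjusted p = 2.16e-10).

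*Nxpe2* measured 9.32, 8.77, 9.52 and 8.64 in CCl4 tumours and was detected on no CCl4 non-tumoral array, so it was at least 12.2-fold higher in CCl4 tumours. Under DDC it measured 9.32, 8.43, 9.4 and 9.7 in DDC tumours, against 9.45, 8.84 and 9.19 in DDC non-tumoral liver, and these groups overlapped. Its difference was 4.14 ± 0.49 (adjusted p = 1.99e-06). Untreated non-tumoral and PBS livers, with means of 7.4 and 7.32, lay above the CCl4 non-tumoral livers here. *Muc13*, a membrane mucin of epithelia, measured 6.17, 8.83, 8.4 and 5.87 in CCl4 tumours and was undetected in CCl4 non-tumoral liver. Under DDC it measured 5.2, 5.75, 5.15 and 6.28 in DDC tumours, against 7.78, 6.52 and 7.54 in DDC non-tumoral liver. The CCl4 tumours were widely spread and overlapped the DDC tumours and the DDC non-tumoral livers. Its difference of 4.47 ± 1.13 (adjusted p = 0.02) was lost without CCl4 tumour 2, without DDC non-tumoral sample 1 or 3 and on slides that hold both tissues, with an adjusted p of up to 0.081, and the other probe gave 0.82 (adjusted p = 0.627).

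*Tmem45b*, a membrane protein, measured 10.95, 11.13, 9.2 and 10.37 in CCl4 tumours, against 4.79, 4.51, 4.72 and 5.92 in CCl4 non-tumoral liver, and 10.22, 9.85, 10.08 and 9.62 in DDC tumours, against 9.54, 9 and 8.95 in DDC non-tumoral liver, with a difference of 4.65 ± 0.49 (adjusted p = 2.01e-07). *Nipal2* is named for its likeness to magnesium transporters. It measured 11.21, 11.89, 10.34 and 11.03 in CCl4 tumours, against 6.18, 6.35, 6.5 and 6.06 in CCl4 non-tumoral liver. The DDC values were 11.23, 11.34, 11.57 and 11.37 in DDC tumours, against 10.78, 10.45 and 10.7 in DDC non-tumoral liver, and the difference was 4.11 ± 0.32 (adjusted p = 2.16e-10). Untreated non-tumoral and PBS livers were also low, with means of 5.18 and 4.68 for *Tmem45b* and 4.63 and 4.6 for *Nipal2*. *Ly6d*, a surface protein anchored by a lipid tail, measured 12.07, 13.12, 12.14 and 12 in CCl4 tumours, against 7.75, 10.21, 8.44 and 7.09 in CCl4 non-tumoral liver, and 12.23, 13.33, 12.39 and 12.36 in DDC tumours, against 13.02, 12.43 and 12.12 in DDC non-tumoral liver. Its difference was 3.9 ± 0.69 (adjusted p = 0.000646), and its DDC tumour effect of 0.06 ± 0.51 (adjusted p = 0.964) was close to 0. *Myzap*, a protein of cell junctions in the heart, had a difference of 3.36 ± 0.49 (adjusted p = 5.84e-05), from tumour effects of 2.75 ± 0.34 (adjusted p = 5.44e-07) under CCl4 and -0.62 ± 0.36 (adjusted p = 0.331) under DDC.

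**Figure D3:**
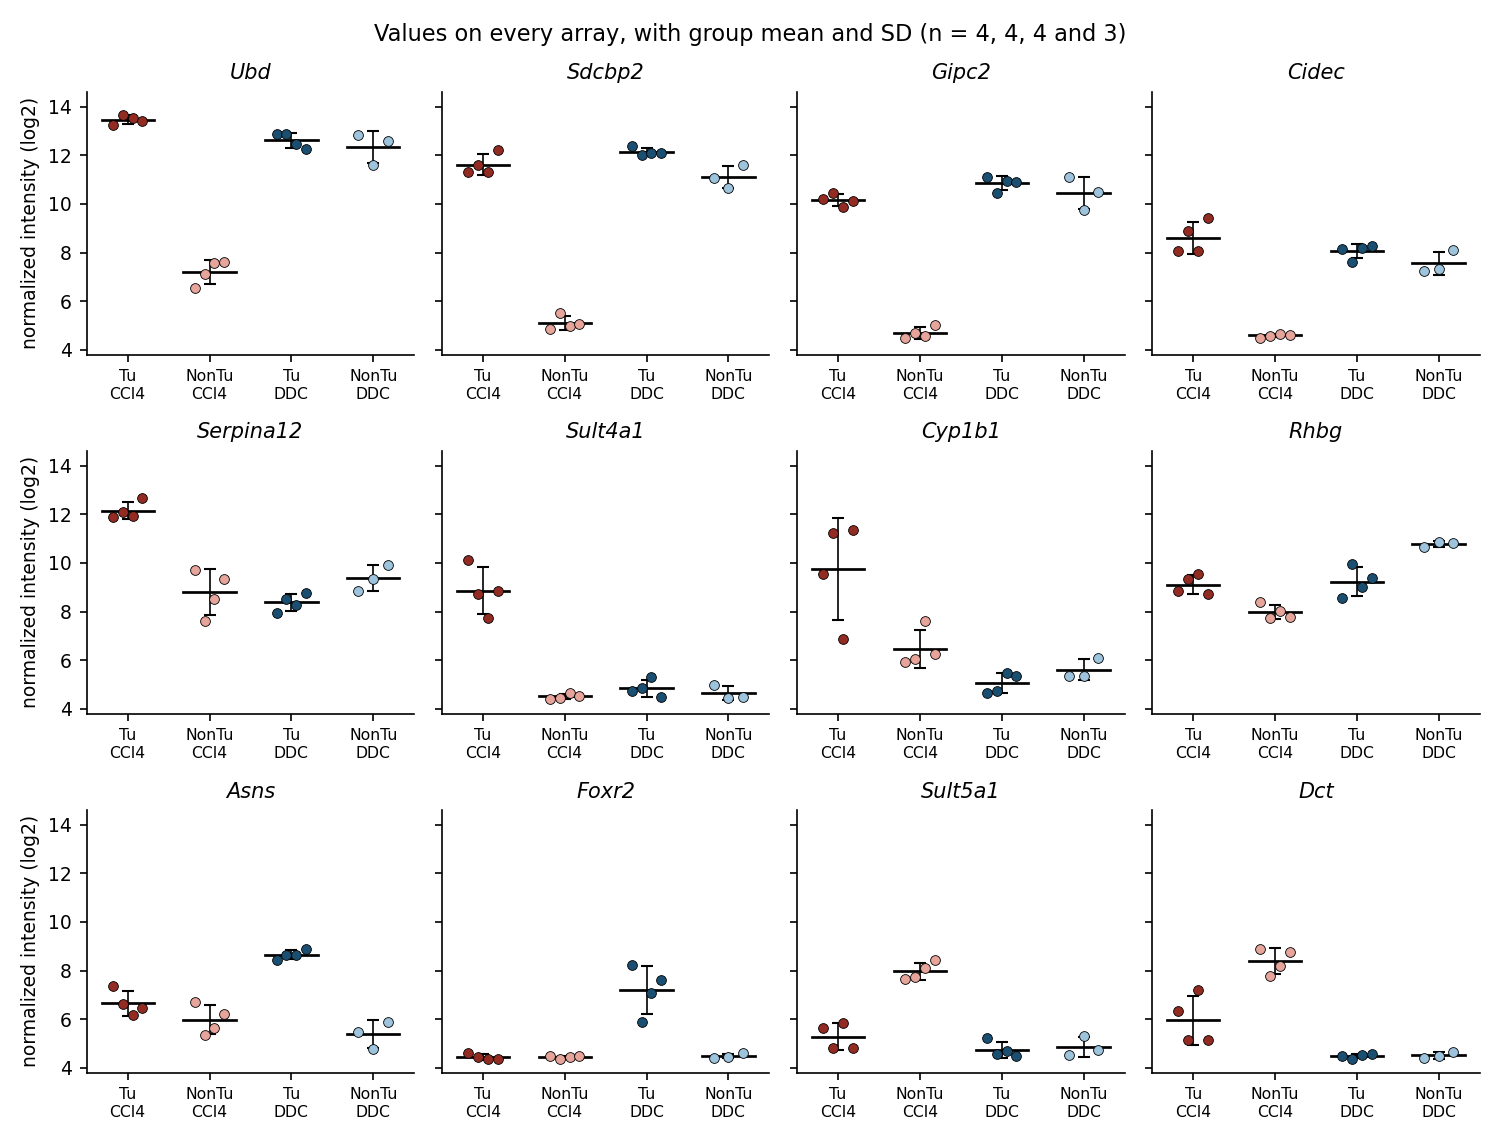
Log2 normalized intensity of 12 named genes on each of the 15 arrays (points), with the group mean (line) and SD (bar), in the order CCl4 tumours, CCl4 non-tumoral liver, DDC tumours and DDC non-tumoral liver. Among these 4 groups, in the top row only the CCl4 non-tumoral livers are low, in *Sult4a1* only the CCl4 tumours are high, in *Foxr2* only the DDC tumours, and in *Sult5a1* only the CCl4 non-tumoral livers.

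The promoter of *Ubd* is printed because the gene has the largest difference of all genes tested, that of *Asns* because it has the largest rise in DDC tumours, and that of *Ifit3* as an interferon target with a difference. Each holds 300 bases around the start of the gene, the last 50 of them from the start onward, 5′ to 3′ on the strand of the gene, from RefSeq (GRCm38.p6), at chr17:37193642-37193941 (plus strand) for *Ubd*, chr6:7693160-7693459 (minus strand) for *Asns* and chr19:34583279-34583578 (plus strand) for *Ifit3*. Capitals mark the interferon-stimulated response element, searched as GAAA, any 2 bases and GAAA, or the amino acid response element, searched as TGATGNAA, on either strand.
Ubd: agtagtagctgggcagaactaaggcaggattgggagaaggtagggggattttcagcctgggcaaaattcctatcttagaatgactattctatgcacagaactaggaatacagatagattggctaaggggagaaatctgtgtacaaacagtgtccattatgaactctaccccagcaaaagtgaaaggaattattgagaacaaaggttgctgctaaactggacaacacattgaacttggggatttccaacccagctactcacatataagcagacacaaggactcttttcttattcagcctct
Asns: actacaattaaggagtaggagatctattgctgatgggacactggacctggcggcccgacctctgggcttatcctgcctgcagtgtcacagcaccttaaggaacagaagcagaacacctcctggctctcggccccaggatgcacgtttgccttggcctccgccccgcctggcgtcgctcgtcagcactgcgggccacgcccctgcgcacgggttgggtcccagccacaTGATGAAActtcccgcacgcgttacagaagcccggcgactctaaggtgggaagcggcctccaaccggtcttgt
Ifit3: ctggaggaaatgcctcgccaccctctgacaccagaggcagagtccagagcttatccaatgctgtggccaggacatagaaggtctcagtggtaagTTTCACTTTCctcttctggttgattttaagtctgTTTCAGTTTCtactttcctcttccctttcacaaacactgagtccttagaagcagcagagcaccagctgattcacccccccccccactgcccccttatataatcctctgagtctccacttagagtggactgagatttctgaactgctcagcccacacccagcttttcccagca
The interferon motif stands in 3.44% and the amino acid motif in 3.97% of 32851 promoter windows of this length. In *Ifit3* the interferon motif occurs as TTTCACTTTC starting at base -156 and as TTTCAGTTTC at base -122, counted from the start of the gene. In *Asns* the amino acid motif occurs as TGATGAAA at base -23, and the *Ubd* window holds neither set of letters. A match of letters is a description and was not tested for binding.

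Other groups of the series, which share no array with the 4 groups compared, give the level of these genes without CCl4. With DDC alone against PBS, 1194 of the 10765 genes (11.1%) were higher and 1246 (11.6%) lower, and in untreated tumours against untreated non-tumoral liver 638 (5.93%) were higher and 567 (5.27%) lower. Of the 255 genes with a higher tumour effect under CCl4, 134 (52.5%) were higher with DDC alone and 169 (66.3%) were higher in untreated tumours. *Ubd* was higher by 7.87 ± 0.5 (adjusted p = 9.34e-13) with DDC alone and by 6 ± 0.47 (adjusted p = 8.24e-11) in untreated tumours. *Guca2a* was higher by 6.2 ± 0.52 (adjusted p = 2.45e-10) with DDC alone, and *Gipc2* by 5 ± 0.34 (adjusted p = 2.62e-12). Of the same 255 genes, 109 did not pass with DDC alone and 12 were lower. *Nxpe2* did not pass, with -0.71 ± 0.38 (adjusted p = 0.192) under DDC alone, although it was high in DDC non-tumoral liver of the driver model. The same held for *Cidec* at 0.3 (adjusted p = 0.617), *Mogat1* at -0.19 (adjusted p = 0.813), *Fitm1* at -0.41 (adjusted p = 0.323) and *Aldh3a2* at -0.24 (adjusted p = 0.466). The median level of the 255 genes was 8.79 in untreated tumours, 7.24 in untreated non-tumoral liver, 8.06 with DDC alone and 7 in PBS liver. Of the 103 genes with a lower tumour effect under CCl4, 32 (31.1%) were lower with DDC alone and 34 (33%) were lower in untreated tumours.

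A smaller set was high in CCl4 tumours alone among the 4 groups compared, though not among all arrays of the series. *Serpina12* encodes vaspin, a serine protease inhibitor secreted by fat tissue. It measured 11.89, 12.08, 11.94 and 12.65 in CCl4 tumours, against 9.72, 7.62, 8.53 and 9.35 in CCl4 non-tumoral liver, and 7.94, 8.53, 8.27 and 8.76 in DDC tumours, against 8.86, 9.34 and 9.91 in DDC non-tumoral liver. The 4 CCl4 tumours stood above the other arrays of the 4 groups, but PBS livers, with 11.83, 12.06 and 12.15, lay in or near their range. Untreated tumours had 12.06, 10.98, 10.96 and 11.56. With DDC alone *Serpina12* was lower than in PBS liver, at -3.8 ± 0.47 (adjusted p = 3.79e-07), and the untreated tumour effect was 1.54 ± 0.44 (adjusted p = 0.0183). Its difference was 4.33 ± 0.59 (adjusted p = 2.21e-05), and CCl4 minus DDC was 3.77 ± 0.4 (adjusted p = 1.21e-07) in tumours against -0.57 ± 0.44 (adjusted p = 0.381) in non-tumoral liver. A second probe of *Serpina12* gave a difference of 1.41 (adjusted p = 0.0488). *Sult4a1*, a sulfotransferase best known from brain, measured 10.1, 8.71, 7.75 and 8.83 in CCl4 tumours and 4.74, 4.86, 5.3 and 4.47 in DDC tumours, of which 1 was detected, and was undetected in both non-tumoral groups. It was at least 10.5-fold higher in CCl4 tumours than in CCl4 non-tumoral liver, and the difference was 4.14 ± 0.6 (adjusted p = 4.86e-05). In untreated tumours *Sult4a1* was higher than in untreated non-tumoral liver as well, by 3.8 ± 0.44 (adjusted p = 2.68e-07). *Cyp1b1*, a cytochrome P450 induced through the aryl hydrocarbon receptor, measured 9.56, 11.22, 6.87 and 11.34 in CCl4 tumours, against 5.94, 6.07, 7.61 and 6.24 in CCl4 non-tumoral liver, and 4.67, 4.73, 5.49 and 5.36 in DDC tumours, against 5.35, 5.36 and 6.1 in DDC non-tumoral liver. CCl4 tumour 3 lay within the CCl4 non-tumoral range and the other CCl4 tumours far above it. The difference was 3.82 ± 0.97 (adjusted p = 0.0214), and it was lost under 6 of 26 alternatives, with an adjusted p of up to 0.142. These were leaving out CCl4 tumour 2, CCl4 tumour 4 or DDC non-tumoral sample 3, slides that hold both tissues, the 15 arrays alone and the replicate block within treatment.

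Among the 103 genes with a lower tumour effect under CCl4, 4 named genes were raised in DDC tumours alone among the 4 groups compared. *Asns*, asparagine synthetase, measured 7.35, 6.64, 6.17 and 6.45 in CCl4 tumours, against 6.71, 5.35, 5.65 and 6.21 in CCl4 non-tumoral liver, and 8.45, 8.65, 8.62 and 8.89 in DDC tumours, against 5.49, 4.78 and 5.9 in DDC non-tumoral liver. The 4 DDC tumours stood above every other array of the 4 groups. The tumour effect was 0.67 ± 0.38 (adjusted p = 0.262) under CCl4 and 3.26 ± 0.41 (adjusted p = 1.67e-05) under DDC, with a difference of -2.59 ± 0.56 (adjusted p = 0.00553), and a second probe gave -2.02 (adjusted p = 0.00197). Of the 19 measured genes of the ATF4 amino acid stress list, to which *Asns* belongs, no other member passed for the difference (median 0.03). Of all genes 3.33% passed. The tumour effect was higher in 3 members under DDC (2.48% of all genes) and in 2 under CCl4 (7.84%). *Psat1*, of serine synthesis, was higher in tumours of both treatments, by 1.63 ± 0.44 (adjusted p = 0.00887) under CCl4 and 2.5 ± 0.47 (adjusted p = 0.00228) under DDC. *Chac1* passed under DDC only, at 1.73 ± 0.49 (adjusted p = 0.0324), with a difference of -1.25 ± 0.66 (adjusted p = 0.375). *Mthfd2* passed under CCl4 only, at 1.66 ± 0.33 (adjusted p = 0.000534).

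*Foxr2*, a forkhead transcription factor, was detected on all 4 DDC tumours at 8.24, 5.89, 7.09 and 7.62 and on no array of the other 3 groups. It was at least 4.13-fold higher in DDC tumours than in DDC non-tumoral liver, with a difference of -2.71 ± 0.44 (adjusted p = 0.000228). *Cdh16*, a cadherin of kidney epithelium, had the same arrangement at 7.41, 8.35, 8.27 and 5.94 in DDC tumours, was at least 5.03-fold higher there than in DDC non-tumoral liver, and had a difference of -2.53 ± 0.41 (adjusted p = 0.000224). DDC tumour 2 was the lowest for *Foxr2* and DDC tumour 4 for *Cdh16*. *Sncg*, gamma-synuclein, measured 5.84, 6.56, 4.96 and 5.39 in CCl4 tumours, against 5.69, 5.37, 5.62 and 5.13 in CCl4 non-tumoral liver, and 7.88, 9.13, 8.58 and 7.47 in DDC tumours, against 6.37, 5.27 and 6.32 in DDC non-tumoral liver. Its DDC tumour effect was 2.28 ± 0.32 (adjusted p = 6.3e-05) and the difference -2.04 ± 0.43 (adjusted p = 0.00445), which was lost in a fit of the 15 arrays alone and with the replicate block within treatment (adjusted p of up to 0.0626). A second probe of *Sncg* gave -1.08 (adjusted p = 0.0114). Neither *Asns*, *Foxr2*, *Cdh16* nor *Sncg* passed with DDC alone, where *Asns* gave 0.45 ± 0.44 (adjusted p = 0.522), and none passed in untreated tumours, where *Asns* gave 1.03 ± 0.41 (adjusted p = 0.105).

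Another group of negative genes was high in CCl4 non-tumoral liver and lower or at background in the other 3 groups compared. PBS livers were on average as high or higher in the 3 genes that follow. *Sult5a1*, a sulfotransferase, measured 5.66, 4.82, 5.86 and 4.82 in CCl4 tumours, against 7.66, 7.74, 8.09 and 8.42 in CCl4 non-tumoral liver, and 5.23, 4.58, 4.69 and 4.49 in DDC tumours, against 4.52, 5.33 and 4.75 in DDC non-tumoral liver. All arrays of the CCl4 non-tumoral liver detected it, against 1 or 2 of each other group compared. The difference was -2.57 ± 0.4 (adjusted p = 0.000131), and a second probe gave -1.41 (adjusted p = 0.0166). With DDC alone *Sult5a1* was lower than in PBS liver, at -4.42 ± 0.31 (adjusted p = 7.66e-12). *Dct*, dopachrome tautomerase of melanin synthesis, was undetected on all DDC arrays and measured 6.32, 5.13, 7.22 and 5.13 in CCl4 tumours, against 8.89, 7.76, 8.17 and 8.76 in CCl4 non-tumoral liver. Its difference was -2.41 ± 0.59 (adjusted p = 0.0169), which was lost with median scaling, on slides that hold both tissues and with the replicate block within treatment (adjusted p of up to 0.12), and it was lower with DDC alone than in PBS liver, at -5.96 ± 0.47 (adjusted p = 8.06e-11). *Amer2*, a membrane protein that binds the Wnt regulator APC, was detected on no CCl4 tumour and on all 4 CCl4 non-tumoral arrays. It was at least 2.96-fold lower in CCl4 tumours, and the difference was -2.2 ± 0.41 (adjusted p = 0.00124). All 3 PBS livers detected *Amer2*, at 7.57, 7.3 and 5.64, and with DDC alone it was lower, at -1.87 ± 0.32 (adjusted p = 6.44e-05). No untreated non-tumoral liver detected *Amer2*, at 4.58, 4.91 and 5.09, whereas *Sult5a1* and *Dct* had means of 7.44 and 9.59 there.

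In *Plxna1*, a semaphorin receptor, and *Tfpi*, an inhibitor of blood clotting, the DDC non-tumoral livers were the low group. *Plxna1* measured 7.46, 7.76, 7.77 and 8.12 in CCl4 tumours, against 9.46, 8.95, 8.27 and 9.23 in CCl4 non-tumoral liver, and 7.71, 7.56, 7.13 and 7.24 in DDC tumours, against 6.91, 6.18 and 6.08 in DDC non-tumoral liver, with a difference of -2.22 ± 0.57 (adjusted p = 0.0219). *Tfpi* measured 6.47, 6.49, 7.03 and 7.06 in CCl4 tumours, against 8.3, 7.87, 6.5 and 8.13 in CCl4 non-tumoral liver, and 6.36, 6.47, 6.11 and 6.49 in DDC tumours, against 5.7, 4.67 and 4.9 in DDC non-tumoral liver, with a difference of -2.2 ± 0.48 (adjusted p = 0.00568), which was lost with median scaling and with the replicate block within treatment (adjusted p of up to 0.0941), and its other probe gave -0.48 (adjusted p = 0.762). *Plxna1* lost its call with median scaling, with slide as a fixed block, on slides that hold both tissues and without DDC tumour 1 or DDC non-tumoral sample 2 or 3 (adjusted p of up to 0.121). *Olfr707*, an olfactory receptor, had -2.12 ± 0.48 (adjusted p = 0.00827), which was lost on slides that hold both tissues and with the replicate block within treatment (adjusted p of up to 0.0609). *Car14*, a membrane carbonic anhydrase, had -2.07 ± 0.46 (adjusted p = 0.0074), with its lowest levels in CCl4 tumours at 7.5, 7.84, 8.15 and 7.04, against 8.86, 9.69, 8.86 and 8.97 in CCl4 non-tumoral liver, and its call was lost with median scaling and on slides that hold both tissues (adjusted p of up to 0.07). *Bhlhb9* had a CCl4 tumour effect of -0.83 ± 0.34 (adjusted p = 0.107), which did not pass, and was higher in DDC tumours than in DDC non-tumoral liver by 1.83 ± 0.37 (adjusted p = 0.00466), and the difference was -2.65 ± 0.51 (adjusted p = 0.00163). *Mid1*, a ubiquitin ligase of microtubules, and *Ces1c*, a secreted carboxylesterase, passed at -2.3 ± 0.66 (adjusted p = 0.0454) and -2.2 ± 0.64 (adjusted p = 0.0484), and both calls were lost under most alternatives, 17 of 26 and 19 of 27.

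In 15 genes the tumour effects passed under both treatments with opposite signs, and each of these 15 also passed for the difference. Of them, 10 had a higher and 5 a lower difference. These counts became 0 and 0 on slides that hold both tissues. They became 4 and 0 in a fit of the 15 arrays alone and without DDC tumour 1, and 12 and 7 without DDC non-tumoral sample 1. *Tuba8*, an alpha-tubulin, was higher in CCl4 tumours and lower in DDC tumours than in their non-tumoral livers. It measured 7.96, 7.57, 7.54 and 7.34 in CCl4 tumours, against 5.73, 6.77, 7.25 and 5.59 in CCl4 non-tumoral liver, and 7.27, 7.92, 7.27 and 8.17 in DDC tumours, against 9.6, 9.51 and 8.81 in DDC non-tumoral liver. The tumours of both treatments overlapped at 7.27 to 8.17 and the non-tumoral livers did not. The tumour effects were 1.27 ± 0.32 (adjusted p = 0.00528) and -1.65 ± 0.34 (adjusted p = 0.00529), and the difference 2.92 ± 0.47 (adjusted p = 0.00021). *Rhbg*, an ammonia transporter of hepatocytes around the central vein, measured 8.86, 9.32, 9.55 and 8.71 in CCl4 tumours, against 8.4, 7.75, 8.02 and 7.79 in CCl4 non-tumoral liver, and 8.54, 9.95, 9.03 and 9.4 in DDC tumours, against 10.66, 10.88 and 10.83 in DDC non-tumoral liver. Here too the tumours overlapped, and the tumour effects were 1.12 ± 0.31 (adjusted p = 0.0126) under CCl4 and -1.56 ± 0.34 (adjusted p = 0.00722) under DDC. *Gstm3*, a glutathione transferase, gave 1.55 ± 0.29 (adjusted p = 0.000304) and -1.09 ± 0.32 (adjusted p = 0.0356), and *Adamtsl4*, a secreted matrix protein, 1.06 ± 0.25 (adjusted p = 0.00307) and -1.2 ± 0.27 (adjusted p = 0.00853). *Rasl10b*, a small GTPase undetected in CCl4 non-tumoral liver, gave 0.98 ± 0.24 (adjusted p = 0.00384) and -1.38 ± 0.25 (adjusted p = 0.00171), and its other probe had a difference of 0.34 (adjusted p = 0.674). *Lamc3*, a laminin chain, went the other way, with -1.7 ± 0.31 (adjusted p = 0.000173) under CCl4 and 1.12 ± 0.33 (adjusted p = 0.0389) under DDC. In DDC non-tumoral liver *Lamc3* was undetected, and its difference was -2.83 ± 0.45 (adjusted p = 0.000195). The CCl4 effect of *Rasl10b* and the DDC effect of *Lamc3* are set against undetected groups, so their sizes rest on background values.

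Some changes were shared. *Csad*, which makes the precursor of taurine, measured 12.4, 12.2, 11.81 and 11.7 in CCl4 tumours, against 9.06, 9.42, 9.95 and 10.22 in CCl4 non-tumoral liver, and 13.21, 12.7, 13.03 and 12.62 in DDC tumours, against 11.28, 10.4 and 10.19 in DDC non-tumoral liver. Tumours were above non-tumoral liver under both treatments, without overlap, and the difference was 0.1 ± 0.54 (adjusted p = 0.961) with a 95% interval of -1 to 1.19. *Rem2*, a small GTPase, and *Car3*, a carbonic anhydrase, had differences of 0.11 ± 0.41 (adjusted p = 0.939, interval -0.72 to 0.93) and -0.08 ± 0.66 (adjusted p = 0.974, interval -1.42 to 1.26). *Sectm1b* was higher in tumours of both treatments too, at a difference of 0.65 ± 0.69 (adjusted p = 0.725, interval -0.76 to 2.07). Of the shared falls, *Igfbp2*, a binding protein of insulin-like growth factors, measured 9.14, 8.82, 10.15 and 8.89 in CCl4 tumours, against 12.58, 12.26, 12.25 and 11.82 in CCl4 non-tumoral liver, and 5.18, 4.97, 6.17 and 6.81 in DDC tumours, against 7.13, 10.55 and 8.59 in DDC non-tumoral liver. The tumour effect was -2.98 under both treatments, at levels that differed by 3.46 ± 0.71 (adjusted p = 0.000821) in tumours and 3.47 ± 0.77 (adjusted p = 0.00132) in non-tumoral liver, and the interval of the difference ran from -2.14 to 2.14, while another probe gave a difference of -1.02 (adjusted p = 0.676). *Adam23*, a membrane protein of the ADAM family, *Agxt*, which clears glyoxylate in peroxisomes, and *Cyp2b9*, a cytochrome P450, fell in tumours of both treatments, with differences of 0.1 ± 0.91 (adjusted p = 0.978, interval -1.76 to 1.95), 0.06 ± 0.66 (adjusted p = 0.984, interval -1.28 to 1.39) and -0.36 ± 0.86 (adjusted p = 0.895, interval -2.12 to 1.39). These intervals allow differences of 1 log2 unit or more in 7 of the 8 genes, so equal effects were not shown.

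Lipid droplet genes were the named group with the most members that passed among the pathway lists. Of 17 measured members, 6 passed for the difference, all higher, with a list median of 0.92 against 0.01 over all genes, and 3.33% of all genes passed. The tumour effect passed in 13 members under CCl4, all higher (median 1.34, with 7.84% of all genes higher), and in 1 under DDC, *Plin2* (median 0.28, with 2.48% higher). *Cidea* and *Cidec* encode proteins that fuse lipid droplets. *Cidea* measured 6.55, 9.42, 9.65 and 9.61 in CCl4 tumours, against 4.65, 4.48, 5.13 and 4.63 in CCl4 non-tumoral liver, and 4.93, 4.56, 5.17 and 5.2 in DDC tumours, against 4.76, 5.02 and 5.24 in DDC non-tumoral liver. CCl4 tumour 1 lay well below the other CCl4 tumours, and the other groups of the 4 lay near background. Its difference was 4.12 ± 0.77 (adjusted p = 0.00137). Untreated tumours were high for *Cidea* as well, at 9.35, 8.8, 8.24 and 9.49, with a tumour effect of 4.38 ± 0.57 (adjusted p = 1.94e-06). *Cidec* measured 8.05, 8.88, 8.05 and 9.42 in CCl4 tumours and was undetected in CCl4 non-tumoral liver, and it measured 8.15, 7.63, 8.18 and 8.27 in DDC tumours, against 7.24, 7.34 and 8.09 in DDC non-tumoral liver. It was at least 8.82-fold higher in CCl4 tumours than in CCl4 non-tumoral liver, and its difference was 3.51 ± 0.47 (adjusted p = 1.52e-05). Of the 4 groups compared, *Cidec* was high in 3 and *Cidea* in 1.

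*Mogat1*, which makes diacylglycerol from monoacylglycerol, measured 8.32, 9.73, 9.58 and 9.78 in CCl4 tumours, against 4.41, 5.14, 5.3 and 6.32 in CCl4 non-tumoral liver, and 9.05, 8.59, 8.91 and 8.57 in DDC tumours, against 8.05, 7.83 and 7.98 in DDC non-tumoral liver. Its difference was 3.24 ± 0.58 (adjusted p = 0.000838). *Fitm1*, a membrane protein that packs fat into droplets, measured 8.54, 7.66, 8.16 and 7.48 in CCl4 tumours, against 4.61, 4.68, 4.96 and 4.99 in CCl4 non-tumoral liver, and 8.75, 8.37, 8.91 and 8.86 in DDC tumours, against 8.52, 8.39 and 8.43 in DDC non-tumoral liver, and was at least 5.66-fold higher in CCl4 tumours. The difference was 2.87 ± 0.36 (adjusted p = 5.57e-06). *Plin4*, a droplet coat protein, and *Mogat2* had 2.75 ± 0.72 (adjusted p = 0.0269) and 2.71 ± 0.55 (adjusted p = 0.00301). *Plin2*, the main droplet coat protein of hepatocytes, was higher in tumours of both treatments, at 1.64 ± 0.3 (adjusted p = 0.000214) and 1.17 ± 0.32 (adjusted p = 0.0295), with a difference of 0.47 ± 0.44 (adjusted p = 0.679). Among probes detected on all 15 arrays, 1 lipid droplet member passed, since that filter leaves out genes at background on any array.

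**Figure D4:**
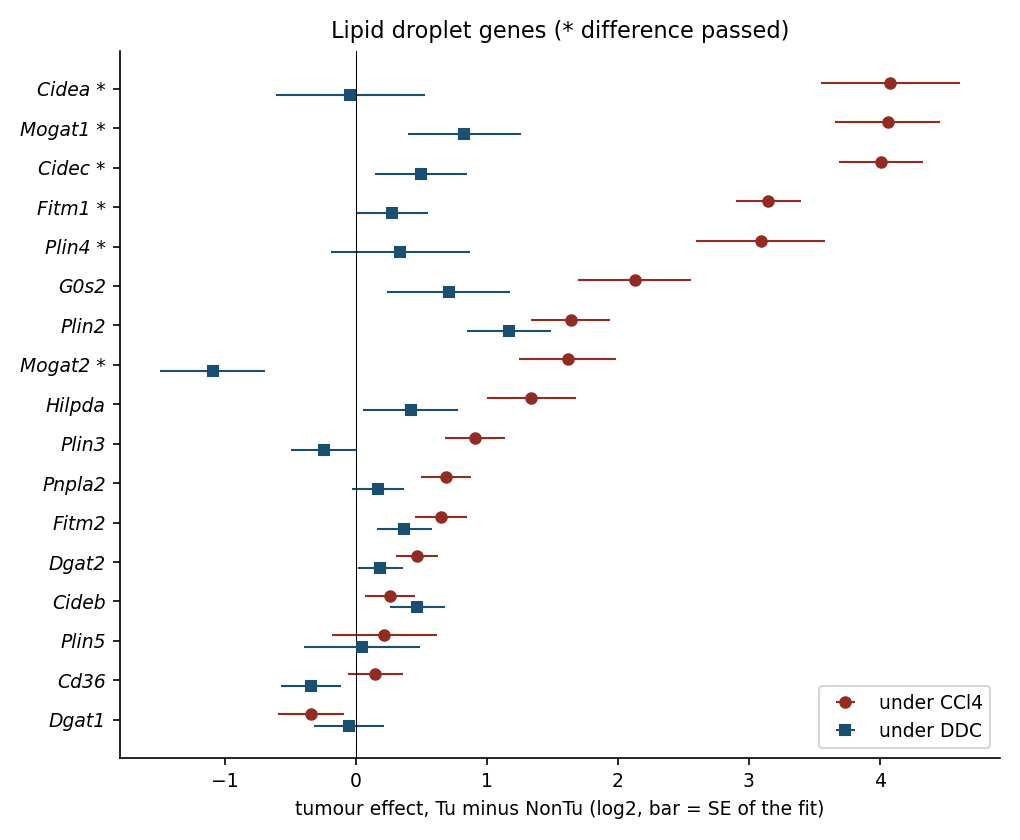
Tumour effect (log2, tumour minus non-tumoral liver, with the standard error of the fit) of the 17 measured lipid droplet genes under CCl4 (circles) and DDC (squares), ordered by the effect under CCl4. The 6 genes marked with a star passed for the difference, and 13 of the 17 passed under CCl4 against 1 under DDC.

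Of 19 genes of fatty acid synthesis, 2 passed for the difference, both higher (median 0.54), with 2.37% of all genes higher. *Me1*, malic enzyme, which supplies NADPH, measured 11.66, 11.92, 11.77 and 12.59 in CCl4 tumours, against 9.23, 9.16, 10.06 and 9.9 in CCl4 non-tumoral liver, and 10.93, 10.78, 10.66 and 10.57 in DDC tumours, against 10.33, 10.37 and 11.06 in DDC non-tumoral liver. CCl4 tumours were above the other 3 groups compared, and the difference was 2.25 ± 0.41 (adjusted p = 0.000913). *Acaca*, acetyl-CoA carboxylase, had 1.24 ± 0.35 (adjusted p = 0.0426), a call lost under 18 of 27 alternatives. *Fasn*, fatty acid synthase, was higher in CCl4 tumours by 1.45 ± 0.36 (adjusted p = 0.00555), against -0.08 ± 0.39 (adjusted p = 0.931) under DDC, and its difference of 1.53 ± 0.54 (adjusted p = 0.123) did not pass. *Scd2*, a stearoyl-CoA desaturase, was higher under both, at 1.28 ± 0.42 (adjusted p = 0.0334) and 2.7 ± 0.45 (adjusted p = 0.000784). In the cholesterol synthesis list none of 14 members passed for the difference, nor reached an unadjusted p under 0.05 (median -0.4). The tumour effect was higher in 1 and lower in 1 under CCl4 (7.84% and 7.4% of all genes), and higher in 4 under DDC (2.48%).

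Interferon genes gave 3 of 20 members that passed, all higher (median 0.65), with 2.37% of all genes higher. *Ifit2*, an interferon-induced inhibitor of translation, measured 9.3, 8.32, 9.89 and 8.47 in CCl4 tumours, against 5.83, 5.21, 4.95 and 6.67 in CCl4 non-tumoral liver, and 9.67, 7.83, 8.24 and 8.17 in DDC tumours, against 9.29, 7.5 and 8.11 in DDC non-tumoral liver. The CCl4 non-tumoral livers lay below the other arrays of the 4 groups. Untreated non-tumoral livers, with 5.75, 5.59 and 6.69, and PBS livers, with 5.62, 6.38 and 6.06, were as low. The difference was 3.16 ± 0.67 (adjusted p = 0.00471), and a second probe gave 2.94 (adjusted p = 0.00764). *Cxcl9*, a chemokine that draws T cells, measured 9.57, 9.71, 12.43 and 10.28 in CCl4 tumours, against 8.22, 7.96, 6.81 and 8.62 in CCl4 non-tumoral liver, and 8.89, 9.58, 8.59 and 9.31 in DDC tumours, against 9.78, 8.71 and 9.83 in DDC non-tumoral liver. Its difference of 2.94 ± 0.83 (adjusted p = 0.043) was lost under 15 of 27 alternatives, among them 9 of the 15 that leave out 1 array. *Ifit3* measured 8.98, 8.6, 8.77 and 8.7 in CCl4 tumours, against 7.53, 7.74, 7.36 and 7.45 in CCl4 non-tumoral liver, and 8.35, 8.24, 8.52 and 8.39 in DDC tumours, against 8.85, 8.66 and 8.68 in DDC non-tumoral liver, with a difference of 1.6 ± 0.43 (adjusted p = 0.0342) that was lost under 12 of 27 alternatives, and the other probes gave 0.32 (adjusted p = 0.812) and 0.97 (adjusted p = 0.237). With slide as a fixed block 1 interferon member passed.

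In the antigen presentation list 1 of 19 members passed, near the 3.33% of all genes: *H2-DMb1*, which helps load peptides on MHC class II, at 1.55 ± 0.45 (adjusted p = 0.0476) (list median 0.7). *Cd74*, the invariant chain of MHC class II, was higher in CCl4 tumours by 1.84 ± 0.35 (adjusted p = 0.000366), and its difference was 1.56 ± 0.52 (adjusted p = 0.0991). The summed intensity of 3 T and NK cell markers (*Cd3e*, *Cd3g* and *Nkg7*) ranged from 95.9 to 276 in CCl4 tumours, 92.7 to 117 in CCl4 non-tumoral liver, 92.9 to 160 in DDC tumours and 166 to 202 in DDC non-tumoral liver, with *Nkg7* undetected in CCl4 non-tumoral liver. The part of these cells in the interferon and antigen presentation values was not tested. In bulk samples, fewer cells of a type and less RNA per cell cannot be told apart.

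Genes of the hepatocytes around the central vein and Wnt targets gave 4 of 21 members that passed for the difference, all higher (median 0.57), with 2.37% of all genes higher. Besides *Rhbg*, with 2.68 ± 0.46 (adjusted p = 0.000468), and *Gstm3*, with 2.65 ± 0.43 (adjusted p = 0.000224), these were *Aldh3a2*, a fatty aldehyde dehydrogenase, and *Tbx3*, a transcription factor induced by Wnt. *Aldh3a2* measured 13.92, 14.16, 14.33 and 14.63 in CCl4 tumours, against 12.7, 12.76, 13.07 and 12.62 in CCl4 non-tumoral liver, and 14.24, 14.2, 14.43 and 14.49 in DDC tumours, against 14.19, 14 and 14.33 in DDC non-tumoral liver. The CCl4 non-tumoral livers were the low group of the 4, and the difference was 1.3 ± 0.27 (adjusted p = 0.00309). *Tbx3* had 1.42 ± 0.41 (adjusted p = 0.0461), a call lost under 17 of 27 alternatives. The other *Tbx3* probes gave 0.56 (adjusted p = 0.491) and 1.62 (adjusted p = 0.0166). *Glul*, glutamine synthetase of the innermost hepatocytes, was lower in DDC tumours than in DDC non-tumoral liver, at -2.84 ± 0.51 (adjusted p = 0.00137), its CCl4 effect was -0.66 ± 0.47 (adjusted p = 0.392), and the difference of 2.18 ± 0.69 (adjusted p = 0.0793) did not pass. *Axin2* and *Lgr5*, Wnt targets, had differences of 0.67 ± 0.47 (adjusted p = 0.535) and -0.03 ± 0.46 (adjusted p = 0.99). Against DDC, 13 of the 21 members were lower with CCl4 in non-tumoral liver (median -1.39, with 12.1% of all genes lower) and 5 in tumours (median -0.13, with 8.34% lower).

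Periportal genes gave no call for the difference in 15 members (limma), 4 of them at an unadjusted p under 0.05 against 1654 of all 10765 genes, and a list median of -0.57. The tumour effect passed in 14 of the 15 under CCl4, all lower, and in 7 under DDC, all lower, with 7.4% and 3.29% of all genes lower. *Uroc1*, which breaks down histidine, was lower in tumours, with -1.69 ± 0.29 (adjusted p = 8.56e-05) under CCl4 and -2.4 ± 0.31 (adjusted p = 1.88e-05) under DDC. *Hal*, histidine ammonia lyase, had tumour effects of -2.88 ± 0.49 (adjusted p = 9.04e-05) under CCl4 and -1.84 ± 0.53 (adjusted p = 0.0353) under DDC. Of 8 urea cycle genes, 6 were lower in CCl4 tumours and none passed in DDC tumours, but no member passed for the difference, with 4 at an unadjusted p under 0.05 (median -0.85). *Asl*, argininosuccinate lyase, came closest at -2.02 ± 0.6 (adjusted p = 0.0564), and *Cps1*, the entry enzyme of the cycle, had -1.45 ± 0.62 (adjusted p = 0.242).

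Of 20 genes of glutathione defence 2 passed (2.37% of all genes were higher), *Gstm3* and *Gstm2*, another glutathione transferase. *Gstm2* measured 14.28, 14.41, 14.23 and 14.42 in CCl4 tumours, against 13.37, 13.2, 13.23 and 13.07 in CCl4 non-tumoral liver, and 14.42, 14.5, 14.65 and 14.78 in DDC tumours, against 14.97, 14.78 and 14.74 in DDC non-tumoral liver. Of the 4 groups the CCl4 non-tumoral livers were lowest and the others lay between 14.23 and 14.97. The difference was 1.36 ± 0.26 (adjusted p = 0.00167), and its other probes gave 1.42 and 1.17 (adjusted p = 0.0261 and 0.0129). *Nqo1*, a marker enzyme of the NRF2 response, had 1.03 ± 0.5 (adjusted p = 0.318), and *Gsta1* 1.77 ± 1.11 (adjusted p = 0.479), which did not pass. Probes of near-identical family members, among them the Gstm, Gsta, Ces1, Cyp2b, Cyp2d, Serpina1, Ang and Ifit genes, may read more than 1 gene.

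The hepatocyte identity list gave 2 of 19 members, both lower (median -0.31, with 0.957% of all genes lower): *Serpina1e*, an alpha-1-antitrypsin gene, at -1.62 ± 0.44 (adjusted p = 0.0354), and *Fgb*, a fibrinogen chain, at -1.19 ± 0.34 (adjusted p = 0.0443). Both calls were lost under most alternatives, 16 and 17 of 26. In the acute phase list *Fgb* alone of 24 members passed (median -0.43), a share near the 3.33% of all genes, with 8 members lower in CCl4 tumours (7.4% of all genes) and 2 in DDC tumours (3.29%). Of 12 male-biased liver genes, *Cyp2d9* had 2.69 ± 0.54 (adjusted p = 0.00295) and *Serpina1e* went the other way, with 2.37% of all genes higher and 0.957% lower. *Cyp2d9* measured 12.96, 13.45, 13.18 and 13.1 in CCl4 tumours, against 8.84, 10.36, 10.61 and 10.82 in CCl4 non-tumoral liver, and 13.46, 13.49, 13.18 and 13.33 in DDC tumours, against 13.29, 12.64 and 13.19 in DDC non-tumoral liver, and the CCl4 non-tumoral livers lay below the other arrays of the 4 groups. PBS livers, at 7.58, 8.31 and 7.75, were lower still. Its call was lost with the replicate block within treatment (adjusted p = 0.0735). None of 13 female-biased genes passed, 2 at an unadjusted p under 0.05 against 1654 of all 10765 genes (median 0.16).

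Of 12 genes of keratins and Mallory-Denk bodies, *Hspb1*, a small heat shock protein, and *Tgm2*, a transglutaminase that crosslinks keratin aggregates, passed at 2.42 ± 0.6 (adjusted p = 0.0182) and 1.3 ± 0.3 (adjusted p = 0.0092). Of all genes 2.37% were higher. *Tgm2* kept its call in each setting but the replicate block within treatment, and *Hspb1* lost its call without CCl4 tumour 2 or DDC non-tumoral sample 3 and with that block (adjusted p of up to 0.084). *Krt8* and *Krt18*, the keratins of hepatocytes, had differences of 0.73 ± 0.37 (adjusted p = 0.339) and 0.39 ± 0.41 (adjusted p = 0.716). Of 11 YAP and TEAD targets, *Nt5e*, which makes adenosine, and *Crim1*, a membrane protein that binds growth factors, passed at 1.85 ± 0.44 (adjusted p = 0.0115) and 1.35 ± 0.32 (adjusted p = 0.0134), with 2.37% of all genes higher. The *Nt5e* call was lost on slides that hold both tissues (adjusted p = 0.0557) and in a second probe, with 1.62 (adjusted p = 0.0581). The *Crim1* call was lost under 5 of 27 alternatives, among them slide as a fixed block and the fit without DDC non-tumoral sample 3 (adjusted p of up to 0.101). The glycolysis and hypoxia list gave 1 of 19, *Gapdh*, often used as a control gene, at 0.9 ± 0.25 (adjusted p = 0.0407) (median 0.44). The bile acid list gave 1 of 17, *Slc27a5*, which activates bile acids, at -1.01 ± 0.29 (adjusted p = 0.0461) (median 0.09). In the glycolysis and bile acid lists the share that passed was near the 3.33% of all genes.

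**Figure D5:**
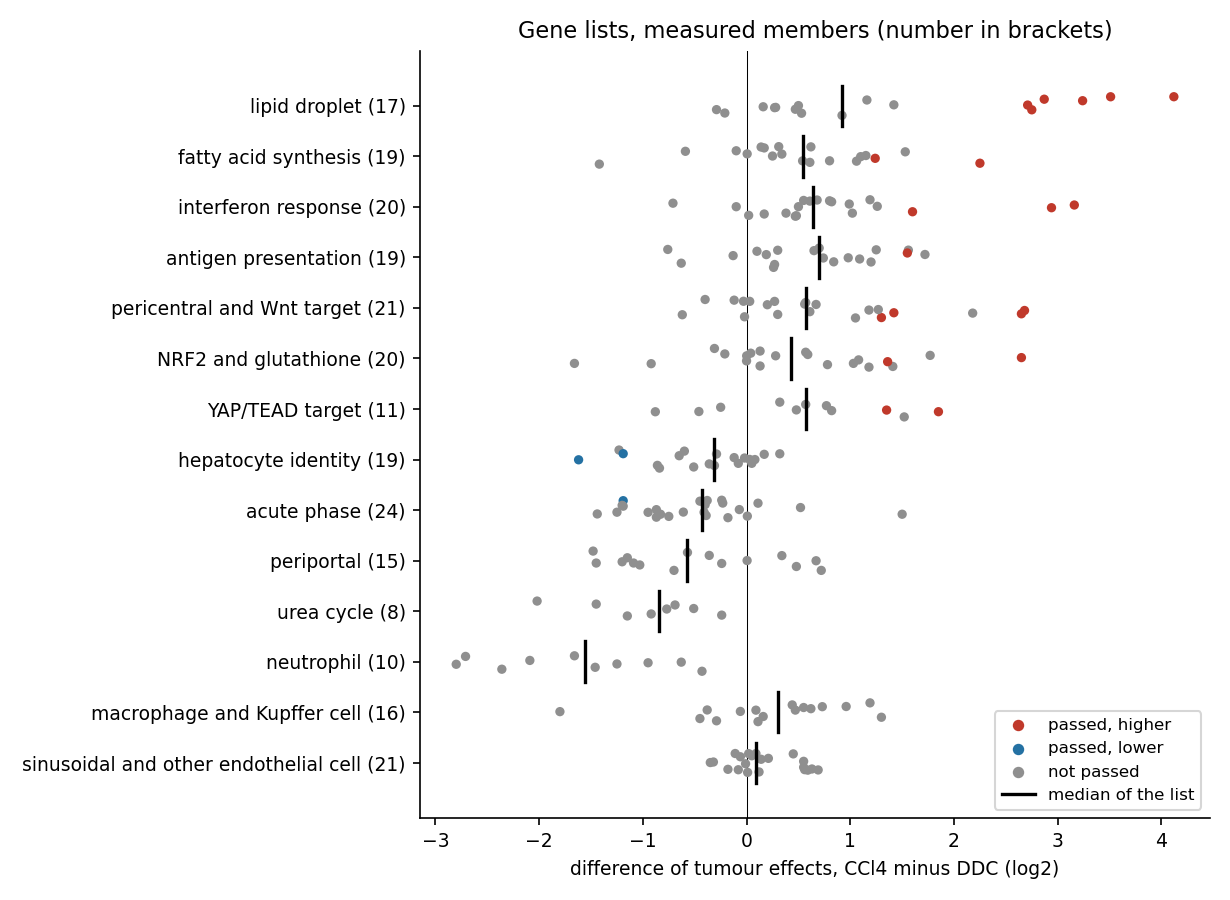
Difference of tumour effects (log2, CCl4 minus DDC) of each measured member of 14 gene lists, with the list median as a black bar and members that passed in colour. Lipid droplet genes reach 4.12 (*Cidea*) with a median of 0.92, while the neutrophil, urea cycle and periportal medians are below 0 with no member that passed.

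The list of 13 genes named for their size in earlier results of these samples gave 9 higher, among them *Ubd*, *Sdcbp2*, *Ang4* and *Guca2a*, and 1 lower, *Foxr2*, with a median of 3.9. It was chosen on these samples and is no independent evidence of a direction.

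Other cell types differed between the groups as well. Neutrophil genes gave none of 10 members for the difference, 3 at an unadjusted p under 0.05 against 1654 of all 10765 genes, at a median of -1.56. In CCl4 tumours 6 of them were lower than in CCl4 non-tumoral liver (7.4% of all genes) and none passed under DDC (3.29% lower). The summed intensity of the neutrophil markers *Csf3r*, *S100a8* and *S100a9* ranged from 874 to 7980 in CCl4 tumours, 4070 to 30100 in CCl4 non-tumoral liver, 79 to 109 in DDC tumours and 113 to 218 in DDC non-tumoral liver. *S100a8* and *S100a9* were detected on no DDC tumour. *S100a8* had a tumour effect of -2.08 ± 0.59 (adjusted p = 0.0142) under CCl4 and -0.84 ± 0.64 (adjusted p = 0.478) under DDC, which did not pass. The sums of 6 endothelial markers were 739 to 4090 in CCl4 tumours, 3190 to 9690 in CCl4 non-tumoral liver, 427 to 1670 in DDC tumours and 2140 to 5880 in DDC non-tumoral liver. Endothelial genes were lower in tumours under both treatments, 12 of 21 under CCl4 (7.4% of all genes were lower) and 11 under DDC (3.29%), with 1 higher under CCl4 and no member at an unadjusted p under 0.05 for the difference (median 0.09).

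Of 16 macrophage genes, 8 were lower and 1 higher in CCl4 tumours (7.4% and 7.84% of all genes) and 5 were lower in DDC tumours (3.29%). None passed for the difference, 3 at an unadjusted p under 0.05 against 1654 of all 10765 genes (median 0.3). Sums of 5 macrophage markers were 879 to 2690 in CCl4 tumours, 2250 to 6220 in CCl4 non-tumoral liver, 462 to 1310 in DDC tumours and 2360 to 3840 in DDC non-tumoral liver. Sums of 6 stellate cell and fibroblast markers were 3630 to 6730 in CCl4 tumours, 8780 to 10300 in CCl4 non-tumoral liver, 2160 to 5320 in DDC tumours and 5130 to 6990 in DDC non-tumoral liver, with *Col1a2* undetected in both DDC groups. The 5 hepatocyte markers, *Alb*, *Apoa1*, *Hnf4a*, *Serpina1a* and *Ttr*, were detected in every group and summed to 47600 to 69800 in CCl4 tumours, 55900 to 77600 in CCl4 non-tumoral liver, 49900 to 54400 in DDC tumours and 56100 to 66200 in DDC non-tumoral liver. The sums of bile duct markers (*Krt19*, *Krt7* and *Sox9*) were 121 to 498 in CCl4 tumours, 113 to 175 in CCl4 non-tumoral liver, 126 to 305 in DDC tumours and 95.7 to 141 in DDC non-tumoral liver. The part of these cell types in the differences above was not tested.

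In 23 of the 38 lists no member passed for the difference (limma). Besides those above, these held cell cycle genes, with 18 of G1/S (median -0.11) and 13 of G2/M (median 0.03), 13 of biliary and progenitor cells (median 0.1) and 15 of the circadian clock (median 0.0077), none of which reached an unadjusted p under 0.05. They also held 13 genes of heme synthesis and breakdown (median -0.12) and 15 drug-metabolising CAR and PXR targets (median -0.36), with 2 each at an unadjusted p under 0.05, and 14 endoplasmic reticulum chaperones (median -0.51), with 3. These shares were near that of all genes, of which 1654 of 10765 reached an unadjusted p under 0.05. In the heme and clock lists neither tumour effect passed for any member.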

How the data were processed

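Bead-array intensities of 36 mouse liver samples were read from the deposited table of unnormalized probe intensities, with a detection p-value deposited by the authors beside each. The submitters' processing notes name GenomeStudio, and its version and settings are not given in the sources used here. Between 24.8% and 30.2% of intensities per array were negative, which shows that the deposited intensities were background-subtracted. Detection columns, whose headers carry no sample name, were tied to intensity columns by values: the p-values fell with the intensities of their own array with 0 steps out of order, against 7714 or more for any other array. Of 25697 probes, 23978 had 1 gene, none had several and 1719 had none in the platform annotation, and 23962 matched the reference gene table. The authors' normalized value table was used as an alternative only.

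Intensities were background-corrected, quantile-normalized and put on the log2 scale with neqc (limma 3.58.1, R 4.3.3; offset 16). Probes of 1 gene with a detection p under 0.05 on 3 or more arrays were kept (14754), and each gene was read by its brightest probe, which gave 10765 genes, 2834 of them with several probes. One limma model with a mean for each of 10 groups was fitted to all 36 arrays, the difference of tumour effects was taken as a contrast, and p-values were adjusted by Benjamini-Hochberg over all genes with a threshold of 0.05. On simulated data from these arrays the fit recovered 36% of 50 genes given a difference of 1 log2 unit, 90% at 2, 96% at 3 and 88% at -2. It made 5 false calls among the genes left unchanged, in a run of 10765 genes. The simulated noise was independent between arrays, without a slide effect, and differences were added to CCl4 tumours only. Errors from slide were therefore not covered. Precision was limited by the 3 or 4 arrays of each group. Figures and promoter searches used Python 3.11.15, numpy 2.4.6, pandas 2.3.3 and matplotlib 3.10.9.

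The genes and lists were chosen with earlier results of these data known. Named were, among genes that passed and had a standard symbol, the 10 largest differences of each sign among genes detected in all 4 groups, up to 5 of each sign among genes undetected in a group, up to 6 with opposite tumour effects, up to 4 passing members of each list with 2 or more, up to 4 shared changes of each sign, and the driver and sex transcripts. Other list members are named as examples chosen after their values were seen. Alternatives were median scaling, floored values, the authors' table, other detection filters, the 15 arrays alone, a trended variance prior, slide and replicate number as blocks, and leaving out each array. Replicate numbers of tumours and non-tumoral livers were not taken as pairs.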

Additional observations from a re-analysis of the deposited data

Results flagged for a closer look

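In 54 named genes the tumour effect differed between CCl4 and DDC by the test of the difference itself (limma, adjusted p under 0.05), all values being log2 and CCl4 minus DDC. The largest positive differences were those of *Ubd* at 5.99, *Sdcbp2* at 5.48, *Ang4* at 5.46, *Guca2a* at 5.13, *Gipc2* at 5.05, *Ccn5* at 4.84, *Tmem45b* at 4.65, *Muc13* at 4.47, *Serpina12* at 4.33, *Nxpe2* at 4.14, *Sult4a1* at 4.14, *Cidea* at 4.12 and *Nipal2* at 4.11. Smaller ones were found for *Ly6d* at 3.9, *Cyp1b1* at 3.82, *Cidec* at 3.51, *Myzap* at 3.36, *Mogat1* at 3.24, *Ifit2* at 3.16, *Cxcl9* at 2.94, *Tuba8* at 2.92, *Fitm1* at 2.87, *Cyp2d9* at 2.69, *Rhbg* at 2.68 and *Gstm3* at 2.65. Below these stood *Hspb1* at 2.42, *Rasl10b* at 2.36, *Me1* at 2.25, *Adamtsl4* at 2.25, *Nt5e* at 1.85, *Ifit3* at 1.6, *Tbx3* at 1.42, *Gstm2* at 1.36, *Crim1* at 1.35, *Aldh3a2* at 1.3, *Tgm2* at 1.3 and *Acaca* at 1.24. The negative differences were those of *Lamc3* at -2.83, *Foxr2* at -2.71, *Bhlhb9* at -2.65, *Asns* at -2.59, *Sult5a1* at -2.57, *Cdh16* at -2.53, *Dct* at -2.41, *Mid1* at -2.3, *Plxna1* at -2.22, *Amer2* at -2.2, *Ces1c* at -2.2, *Tfpi* at -2.2, *Olfr707* at -2.12, *Car14* at -2.07, *Sncg* at -2.04, *Serpina1e* at -1.62 and *Fgb* at -1.19.

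In 9 of 198 groups of 4 arrays 1 array stood apart by Dixon's test at its 95% level, a number near the 1 in 20 that chance gives. Of the CCl4 tumours, sample 1 was low for *Cidea* (6.55, the nearest at 9.42) and *Mogat1* (8.32, the nearest at 9.58), and sample 2 was high for *Ly6d* (13.12, the nearest at 12.14). Of the CCl4 non-tumoral livers, sample 3 was low for *Myzap* (4.5, the nearest at 5.92) and *Ces1c* (11.62, the nearest at 13.24), sample 2 high for *Car14* (9.69, the nearest at 8.97) and sample 4 high for *Guca2a* (5.91, the nearest at 4.79). Of the DDC tumours, sample 4 was high for *Crim1* (7.07, the nearest at 6.35) and sample 2 for *Ly6d* (13.33, the nearest at 12.39). The calls of *Cidea*, *Mogat1*, *Ly6d*, *Myzap* and *Guca2a* held without each of these arrays.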

How the results depend on the processing

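The count of 358 genes for the difference of tumour effects became 216 with slide as a fixed block, of which 207 were shared in direction, 208 on slides that hold tumour and non-tumoral samples, and 408 with median scaling, where 92.6% were higher against 71.2% before and the median of all genes moved to 0.2. Leaving out 1 array gave 210 (without DDC non-tumoral sample 3) to 424 (without CCl4 tumour 3), and the other settings 254 to 385.

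The tumour effect under CCl4 gave 2528 genes with median scaling (89.6% higher, median of all genes 0.27) and 1134 to 1669 without 1 array. The tumour effect under DDC gave 363 with median scaling, 244 in a fit of the 15 arrays alone, 40 with slide as a fixed block, 47 on slides with both tissues and 91 (without DDC non-tumoral sample 3) to 1051 (without DDC non-tumoral sample 1) without 1 array, with 118 without DDC tumour 1 and 135 without DDC non-tumoral sample 2. CCl4 against DDC in tumours gave 1009 on slides with both tissues and 1188 (without CCl4 tumour 4) to 1872 without 1 array, and in non-tumoral liver 1791 to 2466, with 2960 under median scaling, where 15.2% were higher. The cause of these changes was not tested.

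With the replicate number as a block the difference passed in 339 genes, and with a replicate block within treatment, added after the data were seen, in 132, while the DDC tumour effect passed in 390. Deviations of same-numbered samples correlated from -0.13 to 0.24 under CCl4 and -0.16 to 0.35 under DDC, and 4 of 7 numbers correlated best with themselves. These values cannot settle whether the numbers mark pairs. The labels state no pairing, and the main fit did not use the numbers as pairs. If they do mark pairs, the replicate block within treatment, with 132 genes, is the setting that uses them.

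Of 54 named genes that passed, 33 did so in each setting that tested them and none changed direction there; genes undetected on any array were not tested among probes detected on all 15 arrays. Another probe of *Sdcbp2* gave -0.21 (adjusted p = 0.901). Calls of *Ces1c*, *Acaca*, *Fgb*, *Tbx3*, *Mid1*, *Serpina1e*, *Cxcl9* and *Ifit3* were lost under 12 or more alternatives each, and the other probe of *Ces1c* gave -1.11 (adjusted p = 0.133). With median scaling 280 of 378 higher genes (74.1%) passed for CCl4 against DDC in non-tumoral liver only, but 13 of 30 lower genes. Dim probes limit the bounds given for genes undetected in a group.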
